A study of Homo sapiens with 18 samples.

Results

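The 10 heat shock genes described here are the cytosolic and mitochondrial chaperone genes HSPA1A, HSPA1B, HSPA8, HSPH1, DNAJB1, HSP90AA1, HSP90AB1, HSPB1, HSPD1 and HSPE1. They were chosen by gene name, without the chaperones of the endoplasmic reticulum, from the 23152 genes listed in the deposited count tables. Their levels were followed in 18 RNA-seq libraries of C4-2B cells, a castration-resistant prostate cancer line labelled as wild type. VIC-1911 inhibits the mitotic kinase AURKA, and olaparib inhibits PARP enzymes, which act in DNA repair. After 2 days there were 3 libraries each of DMSO vehicle and 0.1 μM VIC-1911. After 7 days there were 3 libraries each of DMSO vehicle, 0.1 μM VIC-1911, 1 μM olaparib and a combination of both drugs at those doses. All groups were the same line in culture, so the values describe 1 cell line, and the labels do not say whether replicates came from separate cultures. If they did not, the p-values measure only the spread between these libraries, which may be technical.

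Heat shock proteins bind unfolded or partly folded proteins and help them fold, and cells make more of them when proteins are damaged. HSP70 proteins hold short stretches of a client in cycles of ATP use, J-domain proteins such as DNAJB1 bring them their clients, and HSP110 proteins such as HSPH1 exchange their nucleotide. HSP90 proteins act later, on nearly folded clients that include steroid hormone receptors and kinases. In mitochondria, HSPD1 (HSP60) forms a chamber that HSPE1 (HSP10) closes as a lid. Heat shock factors such as HSF1 switch on many of these genes by binding alternating GAA and TTC units, the heat shock element, upstream of their starts.

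The sequences upstream of 6 of the genes are shown because they carry, or in 1 case lack, these letters and because they show how alike HSPA1A and HSPA1B are. They are RefSeq sequences of GRCh38.p14, printed 5′ to 3′ and ending at the base before the annotated start, except that of DNAJB1, which stops earlier to leave out an annotated exon. None of the bases shown lies in an exon of GENCODE release 44. Capitals mark each GAANNTTC and TTCNNGAA, where N is any base, and both motifs read the same on either strand. They can overlap each other.
HSPA1A (chr6:31815293-31815542, plus strand): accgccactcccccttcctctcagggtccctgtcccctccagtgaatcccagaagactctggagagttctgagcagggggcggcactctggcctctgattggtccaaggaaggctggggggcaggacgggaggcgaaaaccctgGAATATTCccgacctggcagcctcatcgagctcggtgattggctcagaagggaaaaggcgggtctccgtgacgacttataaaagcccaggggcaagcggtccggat
HSPA1B (chr6:31827488-31827737, plus strand): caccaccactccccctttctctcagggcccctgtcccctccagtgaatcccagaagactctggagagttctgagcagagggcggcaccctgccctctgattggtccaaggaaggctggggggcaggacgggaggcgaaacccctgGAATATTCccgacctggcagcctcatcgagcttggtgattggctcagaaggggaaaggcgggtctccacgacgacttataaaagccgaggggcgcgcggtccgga
HSP90AA1 (chr14:102087045-102087294, minus strand): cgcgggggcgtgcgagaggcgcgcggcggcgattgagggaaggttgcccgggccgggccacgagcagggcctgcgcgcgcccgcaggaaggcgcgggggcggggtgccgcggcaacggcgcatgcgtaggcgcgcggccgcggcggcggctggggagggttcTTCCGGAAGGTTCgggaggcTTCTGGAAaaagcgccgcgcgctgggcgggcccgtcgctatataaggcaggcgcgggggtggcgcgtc
DNAJB1 (chr19:14518408-14518647, minus strand): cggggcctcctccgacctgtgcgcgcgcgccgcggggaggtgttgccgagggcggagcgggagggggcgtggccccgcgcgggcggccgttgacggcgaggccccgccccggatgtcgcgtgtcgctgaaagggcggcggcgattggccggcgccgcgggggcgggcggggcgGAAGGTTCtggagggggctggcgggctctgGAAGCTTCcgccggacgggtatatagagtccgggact
HSPB1 (chr7:76302423-76302672, plus strand): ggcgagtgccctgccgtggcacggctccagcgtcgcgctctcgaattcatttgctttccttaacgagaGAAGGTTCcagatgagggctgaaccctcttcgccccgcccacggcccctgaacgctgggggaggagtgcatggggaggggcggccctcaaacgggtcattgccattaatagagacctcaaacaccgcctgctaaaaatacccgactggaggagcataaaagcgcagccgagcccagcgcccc
HSPH1 (chr13:31162389-31162638, minus strand): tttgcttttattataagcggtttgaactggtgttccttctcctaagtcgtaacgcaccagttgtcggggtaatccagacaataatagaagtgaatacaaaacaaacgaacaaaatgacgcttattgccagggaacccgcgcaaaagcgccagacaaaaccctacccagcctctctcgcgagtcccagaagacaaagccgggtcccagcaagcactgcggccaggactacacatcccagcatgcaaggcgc

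RefSeq gave 16 start windows for the 10 genes, each of 250 bases upstream. Of these, 8 windows held either motif (50%), against 11.6% of all 35116 windows of that length. Counted by gene, 8 of the 10 genes had at least 1 window with either motif, against 3813 of all 27305 genes (14%), and HSPH1 and HSPE1 had none, which says only that these letters are not in these windows. GAANNTTC was in 8 of the 16 windows and in 5.78% of all windows, and TTCNNGAA was in 4 of the 16 and in 6.62% of all. A run of 3 alternating units was in 4 of the 16 windows, those of HSP90AA1, HSP90AB1, HSPA8 and HSPD1, and in 0.441% of all windows. The HSPA8 window lay wholly in annotated exons of HSPA8, and the motifs of the HSPD1 window lay in annotated exons of HSPD1. The windows of HSPA1A and HSPA1B had the same base at 235 of 249 aligned positions (94.4%). DNAJB1 and HSP90AA1 had further windows, not shown, that held neither motif.

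Whole-series values bear on the members as follows. Library totals were 3245273 to 7184420 counts at 2 days and 4967931 to 19684208 at 7 days, where replicate 1 of olaparib was the shallowest. The marker check fitted the label: the 8 luminal prostate markers reported here, among them KLK3, were at 40.2 FPKM or more in every library (FPKM: fragments scaled by gene length and by library size). The endothelial markers stayed under 0.754 FPKM, and of the basal, stromal and leukocyte markers only KRT14, COL1A1 and CD68 passed 1 FPKM, with CD68 the highest at 10.1. The sum of the 8 luminal markers was at 2457 to 2634 FPKM in vehicle and 2306 to 2436 with VIC-1911 at 2 days. At 7 days it was at 4207 to 4250.2 in vehicle, at 2883 to 3057 with VIC-1911, at 2600.5 to 2715 with olaparib and at 2569 to 2744 with the combination. The leukocyte sum, nearly all CD68, was at 6.41 to 7.14 FPKM in vehicle and 5.56 to 7.36 with VIC-1911 at 2 days, and at 6.11 to 6.91 in vehicle, 7.50 to 7.80 with VIC-1911, 8.24 to 10.1 with olaparib and 9.29 to 10.1 with the combination at 7 days. The basal sum, mostly KRT14, was at 1.40 to 1.59 in vehicle at 7 days, 0.833 to 1.35 with VIC-1911, 1.93 to 2.79 with olaparib and 2.43 to 2.89 with the combination. The stromal sum, mostly COL1A1, was at 1.55 to 2.10 in vehicle at 7 days, 1.69 to 1.99, 2.21 to 2.51 and 2.34 to 2.63 in these treated groups, and the endothelial sum, nearly all VWF, went from 0.654 to 0.743 in vehicle to 0.425 to 0.754, 0.173 to 0.339 and 0.241 to 0.421. KRT5, DCN, CD3E and CDH5 were listed at 0 in every library. The part of these markers in the changes below was not tested. Fewer cells of a kind and less RNA per cell cannot be told apart in bulk samples.

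The names of the vehicle and VIC-1911 libraries of 7 days carry neighbouring numbers, and those of the olaparib and combination libraries form another run. In olaparib against vehicle, combination against vehicle and combination against VIC-1911, drug and name run cannot be told apart. Rises and falls given below for these comparisons are differences between groups. VIC-1911 against vehicle and combination against olaparib lie within a run.

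The 10 genes together held 1.12% to 1.16% of all counts in vehicle at 2 days and 1.24% to 1.28% with VIC-1911. At 7 days they held 0.774% to 0.782% in vehicle, 0.930% to 0.969% with VIC-1911, 0.905% to 0.914% with olaparib and 0.917% to 0.940% with the combination. No library of a treated group overlapped its vehicle group in this share. By FPKM, which divides by gene length, HSPA8 led in vehicle at 7 days, at 826 ± 7.96 (SD, n = 3), followed by HSPB1 at 625 ± 100 and HSP90AB1 at 553 ± 6.90. HSPB1 and HSP90AB1 overlapped there, so their order is not set. HSPD1 followed at 278 ± 8.07, HSP90AA1 at 216 ± 4.19, HSPH1 at 29.3 ± 0.388, DNAJB1 at 20.8 ± 0.264, HSPE1 at 16.2 ± 0.890 and HSPA1B at 7.62 ± 0.439, with no overlap between neighbours. The plot of levels by library shows all 6 groups.

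**Figure D1:**
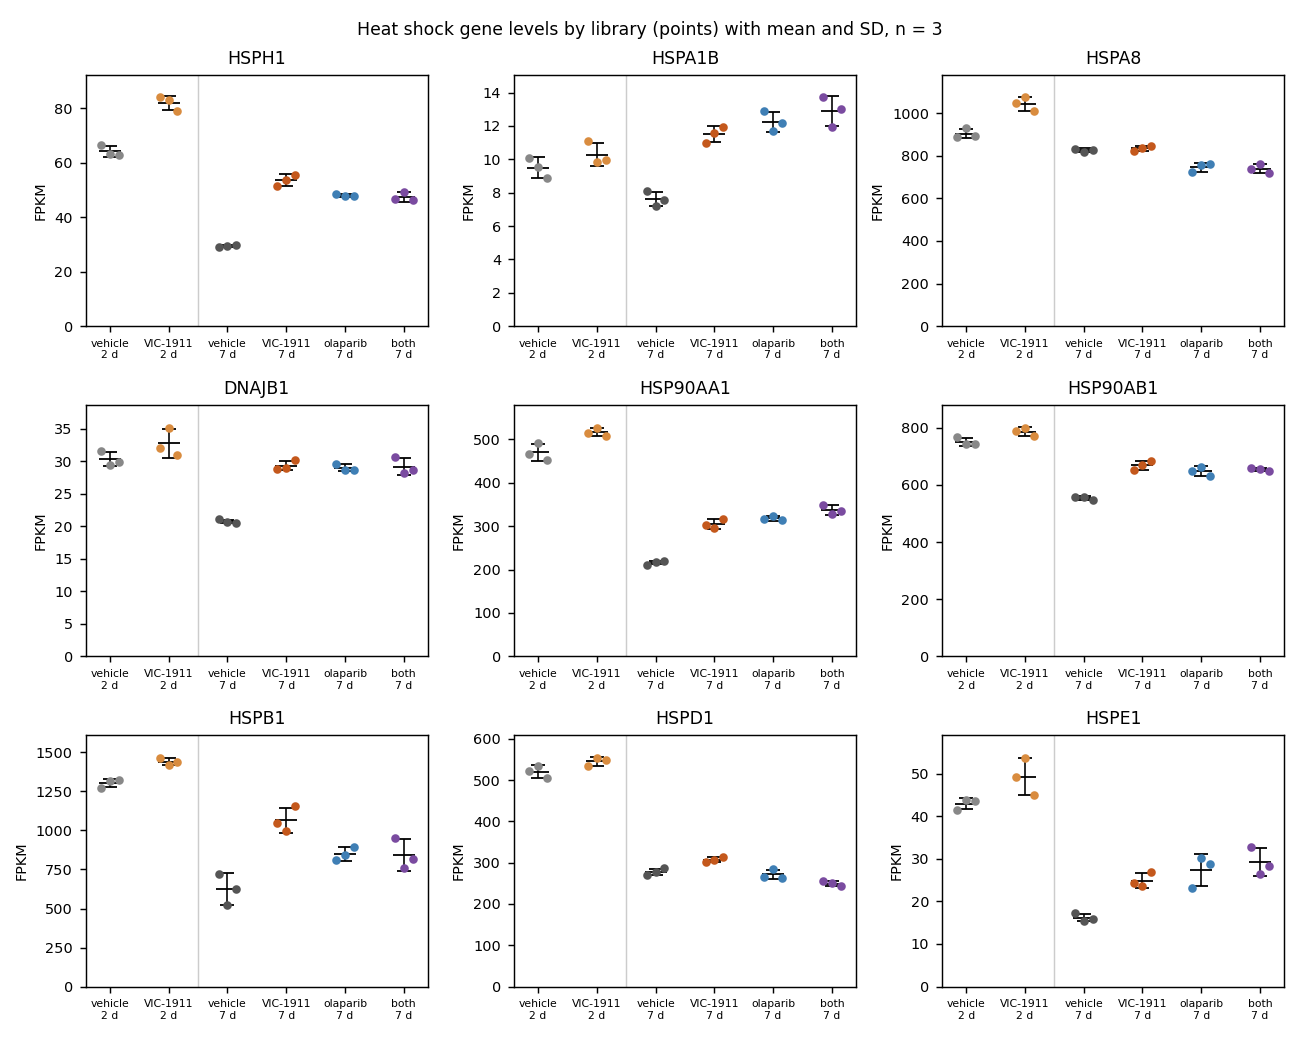
FPKM of 9 heat shock genes (y axis, from 0) in the 18 libraries (points) of the 6 groups (x axis), with the mean and SD of 3 libraries. The 7-day vehicle libraries lie below all treated 7-day libraries except for HSPA8 and HSPD1, and the share of all genes with that order was not counted. The 2-day and 7-day values come from tables normalized separately.

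HSPA1A was nearly uncounted, with 1 to 4 counts per library at 2 days and 1 to 8 at 7 days, and did not pass the filter. Its near-identical copy HSPA1B had 467 to 1154 counts at 2 days and 842 to 3981 at 7 days. The 2 genes cannot be separated by these counts, since how reads that fit both were counted is not given, and HSPA1B stands for the pair with that limit. The other 9 genes passed the filter in every comparison.

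HSPE1 is also uncertain. It shares exon bases with HSPE1-MOB4 on the same strand and with HSPD1 on the other. Summed over these genes the overlaps were 327 bases, where a base shared with both is counted for each. HSPE1-MOB4 was listed at 0 FPKM in every library, and MOB4 had at most 3 counts. The 2-day FPKM of HSPE1 were 1.15 times higher, relative to its counts, than for the median gene, a ratio above that of 99.5% of 11346 genes, whereas the other 8 tested genes lay between 0.962 and 1.05 times.

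In GENCODE release 44 (GRCh38), HSPH1 lies at chr13:31134973-31162388, HSPB1 at chr7:76302673-76304295 and HSP90AB1 at chr6:44246166-44253888, and none of them shares exon bases with another gene. HSP90AA1 (chr14:102080742-102139699) shares 197 exon bases with WDR20 on the opposite strand, and DNAJB1 (chr19:14514769-14560391) shares 623 with TECR and MIR639, also opposite. HSPA8 (chr11:123057489-123063230) shares 730 exon bases with SNORD14C and SNORD14D, small nucleolar RNA genes on its own strand, and with an unnamed gene on the opposite strand. The totals of DNAJB1 and HSPA8 are sums over these genes, where a base shared with more than 1 of them is counted for each. HSPA1B (chr6:31827738-31830254) shares 920 exon bases with an unnamed gene on its own strand. Reads from shared bases cannot be told apart by position on the same strand, and the strand setting of the counting is not given, so the values of these genes are uncertain to that extent. By name, the annotation holds 26 pseudogenes of HSPE1, 18 of HSPD1 and 17 of HSPA8, and the count tables list none of these. Of 6 pseudogenes named for the HSP90AB family the count tables list 1.

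VIC-1911 raised 5 of the 9 genes at 2 days, and none fell. Across all 12241 genes tested 7.5% were higher and 7.19% lower, by edgeR's quasi-likelihood test with Benjamini-Hochberg adjusted p under 0.05. None of the 9 passed the 1.5-fold limit used for that time point, which 2.16% of all genes passed. The 5 were HSPH1, HSPA8, HSPA1B, HSPB1 and HSP90AA1. The median log2 fold change of the 9 genes was 0.16 and that of all genes tested was -0.0034.

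HSPH1, the HSP110 partner of HSP70, changed most. Its FPKM were 66.6, 63.3 and 63.0 in vehicle and 84.0, 83.0 and 78.9 with VIC-1911, so the groups did not overlap. The log2 fold change was 0.36 (SE 0.05, adjusted p = 1.47e-07), higher than 95.8% of all genes tested. HSPA8, the constitutive HSP70, was at 889, 930 and 894 FPKM in vehicle and 1048, 1074 and 1008 with VIC-1911, again without overlap. It rose by 0.23 on the log2 scale (SE 0.04, adjusted p = 8.51e-05).

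The other 3 rose less. HSPB1, the small heat shock protein HSP27, rose by 0.16 (SE 0.04, adjusted p = 0.00618), from 1275, 1317 and 1322 FPKM to 1466, 1421 and 1436. Without replicate 1 of VIC-1911 its adjusted p was 0.0546. HSP90AA1, the inducible cytosolic HSP90, rose by 0.15 (SE 0.04, adjusted p = 0.0128), but its adjusted p was 0.132 without vehicle replicate 3 and 0.0802 without VIC-1911 replicate 2. HSPA1B, the inducible HSP70, had a log2 fold change of 0.18 (SE 0.06, adjusted p = 0.0228), its FPKM overlapped (8.86 to 10.1 against 9.82 to 11.1), and its call was lost with DESeq2 (adjusted p = 0.0971), with limma on FPKM (0.378) and without either of 2 libraries (0.159 without vehicle replicate 3, 0.125 without VIC-1911 replicate 1). HSPE1, DNAJB1, HSP90AB1 and HSPD1 had log2 fold changes of 0.20, 0.10, 0.09 and 0.09 that did not pass. Their 95% intervals reached up to 0.37, 0.23, 0.17 and 0.17.

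After 7 days VIC-1911 was followed by higher levels of 8 of the 9 genes, all but HSPA8, and none was lower. Of all 14409 genes tested 26.7% were higher and 25.7% lower, and 6.89% passed the limit of 2-fold, which no member reached. The median log2 fold change was 0.45 in the 9 genes and -0.0052 in all. The plot of changes against vehicle sets the 4 comparisons beside each other. The 3 comparisons at 7 days share their vehicle libraries.

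**Figure D2:**
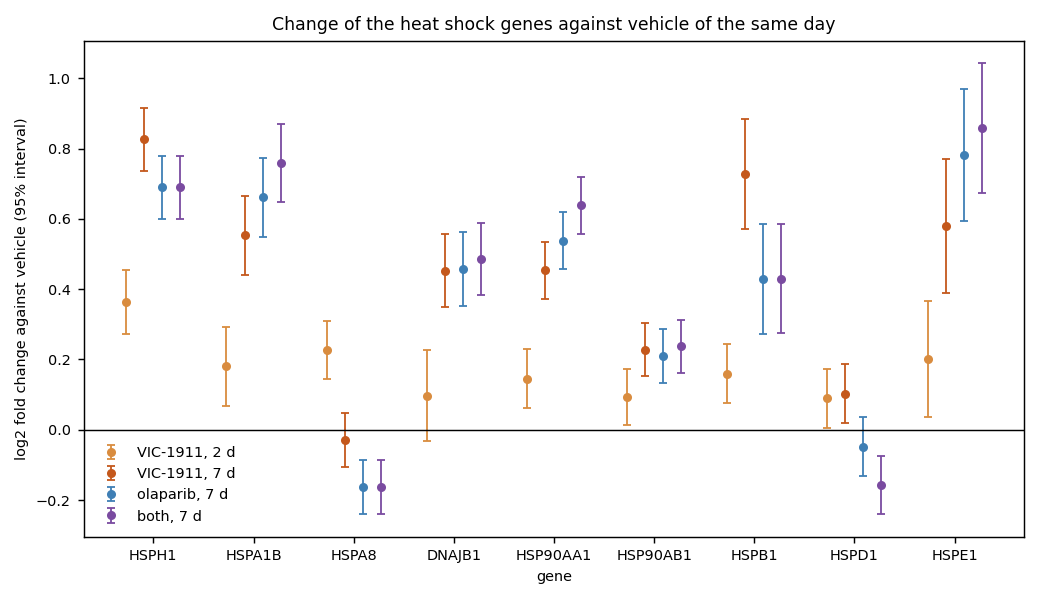
Log2 fold change against vehicle of the same day (y axis) with its 95% interval for 9 heat shock genes (x axis) under each treatment (colours), from the edgeR fits. HSPH1 is highest among the VIC-1911 values, at 0.36 at 2 days and 0.83 at 7 days, while HSPA8 lies at 0.23 at 2 days and at -0.16 with olaparib and with the combination.

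In the HSP70 group, HSPH1 stood at 28.9, 29.5 and 29.7 FPKM in vehicle and at 51.5, 53.8 and 55.6 with VIC-1911. This was a 1.77-fold rise (log2 0.83, SE 0.04, adjusted p = 9.18e-16). With olaparib it was at 48.6, 47.6 and 47.6 and with the combination at 46.5, 49.4 and 46.4 FPKM. Both were 0.69 above vehicle on the log2 scale (SE 0.04; adjusted p = 6.10e-14 and 3.67e-14). All treated libraries were above all vehicle libraries.

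HSPA1B was at 8.07, 7.20 and 7.57 FPKM in vehicle. It was at 10.99, 11.6 and 11.96 with VIC-1911, at 12.9, 11.7 and 12.2 with olaparib and at 13.7, 11.96 and 13.0 with the combination. The log2 fold changes were 0.55, 0.66 and 0.76 (SE 0.06, 0.06 and 0.05). Its treated and vehicle libraries did not overlap. DNAJB1, which delivers clients to HSP70, lay between 20.5 and 21.1 FPKM in vehicle and between 28.1 and 30.6 in all 9 treated libraries. Its changes of 0.45, 0.46 and 0.49 (SE 0.05 each) were within 1 SE of each other.

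HSPA8 went another way. Its FPKM were 832, 817 and 829 in vehicle and 823, 837 and 847 with VIC-1911, which overlap, with a log2 fold change of -0.03 in counts scaled by TMM (95% interval -0.11 to 0.05, adjusted p = 0.539) and of 0.02 with limma on FPKM. With olaparib they were 723, 756 and 761, and with the combination 739, 761 and 719.6, all below vehicle. It fell by 0.16 on the log2 scale in each (SE 0.04, adjusted p = 0.000521 and 0.000490).

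Among the HSP90 genes, HSP90AA1 was at 211, 217 and 219 FPKM in vehicle, at 302, 296 and 317 with VIC-1911, at 316, 323 and 313 with olaparib and at 349, 328 and 334 with the combination. It rose by 0.45, 0.54 and 0.64 on the log2 scale (SE 0.04 each; adjusted p = 7.19e-11, 1.71e-12 and 2.57e-14). The constitutive copy HSP90AB1, the more abundant of the 2, rose by 0.23, 0.21 and 0.24 (SE 0.04 each), from 546 to 558 FPKM in vehicle to 631 to 685 in the treated libraries. Both genes rose in all 3 comparisons, and the share of HSP90AA1 in their sum is given with the ratios.

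HSPB1 was variable in vehicle, at 724, 524 and 627 FPKM. It was at 1045, 998 and 1155 with VIC-1911, at 812, 841 and 896 with olaparib and at 954, 759 and 815 with the combination. The groups did not overlap with vehicle. The log2 fold changes were 0.73 (SE 0.08) with VIC-1911 and 0.43 (SE 0.08) both with olaparib and with the combination (adjusted p = 3.16e-09, 2.35e-05 and 1.90e-05).

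The mitochondrial pair moved apart. HSPE1 was at 17.2, 15.4 and 15.9 FPKM in vehicle, at 24.3, 23.5 and 26.8 with VIC-1911, at 23.1, 30.1 and 28.8 with olaparib and at 32.9, 26.5 and 28.4 with the combination. It rose by 0.58, 0.78 and 0.86 (SE 0.09 each). HSPD1, which is divergently placed beside it on chromosome 2, was at 270.1, 277 and 286 FPKM in vehicle. It was at 303, 306 and 314 with VIC-1911, at 265, 285 and 264 with olaparib and at 255, 251 and 243 with the combination. Its log2 fold changes were 0.10 (SE 0.04, adjusted p = 0.0343), -0.05 (SE 0.04, adjusted p = 0.329) and -0.16 (SE 0.04, adjusted p = 0.00159). The VIC-1911 call of HSPD1 was lost without any of 4 libraries: adjusted p = 0.248 and 0.139 without vehicle replicates 1 and 2, and 0.0663 and 0.113 without VIC-1911 replicates 2 and 3. It was also lost with upper-quartile normalization (0.0836), among genes of at least 1 FPKM (0.0767) and with only the 2 groups in the fit (0.0503).

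With olaparib 7 of the 9 genes were higher than in vehicle and 1, HSPA8, was lower. Of all genes tested 28.1% were higher and 25.9% lower. With the combination 7 were higher and 2, HSPA8 and HSPD1, were lower, where 28.6% of all were higher and 28% lower. No member passed 2-fold in either comparison, which 7.16% of all genes passed with olaparib and 8.54% with the combination. The median log2 fold changes of the 9 genes were 0.46 with olaparib and 0.49 with the combination. Those of all genes were 0.010 and 0.0046.

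Adding VIC-1911 to olaparib changed 0 of the 9 genes by edgeR's adjusted p, with 4.55% of all genes higher and 6.95% lower. DESeq2 and limma on FPKM also called 0. At an unadjusted p under 0.05, 2 of the 9 were past it, HSP90AA1 (log2 fold change 0.10, 95% interval 0.02 to 0.18, adjusted p = 0.102) and HSPD1 (-0.11, interval -0.19 to -0.02, adjusted p = 0.0867). The 95% intervals of the 9 genes lay between -0.19 and 0.25. Those of HSPH1 and HSPA8 lay around 0, at -0.09 to 0.09 and -0.08 to 0.08.

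Adding olaparib to VIC-1911 gave 3 higher and 4 lower genes, where 20.7% of all genes were higher and 22.2% lower. HSP90AA1 rose by 0.19 (SE 0.04), HSPA1B by 0.21 (SE 0.05) and HSPE1 by 0.28 (SE 0.08). HSPB1 fell by 0.30 (SE 0.08), HSPD1 by 0.26 (SE 0.04), HSPH1 by 0.14 (SE 0.04) and HSPA8 by 0.13 (SE 0.04). The calls of HSPA1B and HSPE1 were lost with limma on FPKM (adjusted p = 0.0662 and 0.0819 with a pseudocount of 0.1), and that of HSPE1 also without combination replicate 1 (0.0858). The call of HSPH1 was lost with upper-quartile normalization (0.0578), without VIC-1911 replicate 3 (0.0661) and without combination replicate 3 (0.0514).

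The test of whether the effect of VIC-1911 depended on olaparib gave a lower effect beside olaparib for 8 of the 9 genes. It gave a higher one for none, and 22.9% of all genes had a lower and 21% a higher effect. These 8 are the genes that VIC-1911 alone raised, and none of the 9 passed when it was added to olaparib. The contrast uses the same libraries as those comparisons, so the 8 largely restate them. Among all genes, 26.7% were higher and 25.7% lower with VIC-1911 alone, and 4.55% and 6.95% when it was added to olaparib. For HSPH1 the change with VIC-1911 was 0.83 without olaparib and 0.00 with it, a difference of -0.83 (SE 0.06, adjusted p = 3.44e-12). For HSPB1 the changes were 0.73 and 0.00, a difference of -0.73 (SE 0.11). The differences of the other 6 were -0.50 (HSPE1), -0.46 (HSPA1B), -0.42 (DNAJB1), -0.35 (HSP90AA1), -0.21 (HSPD1) and -0.20 (HSP90AB1). HSPA8, the exception, had a difference of 0.03 (95% interval -0.08 to 0.14).

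VIC-1911 was also tested for a different effect at 7 days than at 2 days, in 1 fit of the raw counts of both tables. The names of the 2-day libraries form a run of their own. Length of treatment and name run therefore cannot be told apart in this difference. Of the 9 genes, 6 had a higher effect at 7 days and 1 a lower effect, where 14.6% of all 13832 genes were higher and 14.2% lower. The largest differences were 0.55 for HSPB1 (SE 0.08, adjusted p = 6.88e-07) and 0.45 for HSPH1 (SE 0.06, adjusted p = 1.99e-07). DNAJB1, HSPA1B, HSPE1 and HSP90AA1 followed at 0.34, 0.36, 0.36 and 0.29. The call of HSPE1 was lost without VIC-1911 replicate 3 of either time point (adjusted p = 0.0656 at 2 days and 0.0717 at 7 days). HSPA8 had a lower effect at 7 days (-0.27, SE 0.06, adjusted p = 0.000167), with 0.23 at 2 days and -0.03 at 7 days. HSP90AB1 (0.12, adjusted p = 0.105) and HSPD1 (-0.0021, adjusted p = 0.985) did not pass. The difference for HSP90AB1 did pass with DESeq2 (0.13, adjusted p = 0.0210), with scaling by library size only (0.17, adjusted p = 0.00837) and without vehicle replicate 1 or 2 of 7 days (adjusted p = 0.0356 and 0.0303).

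Vehicle levels stood lower at 7 days than at 2 days in the separately normalized FPKM tables, and no test was made across them. HSPB1 was at 1305 ± 26.1 FPKM at 2 days and 625 ± 100 at 7 days (SD, n = 3). HSPH1 was at 64.3 ± 2.00 and 29.3 ± 0.388, HSPE1 at 43.0 ± 1.39 and 16.2 ± 0.890, and HSPA8 at 904 ± 22.4 and 826 ± 7.96. The treated 7-day means of HSPH1, 47.5 to 53.6 FPKM, lay between these vehicle values.

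Ratios between related genes within a library do not depend on library size. The share of HSP90AA1 in the FPKM of HSP90AA1 and HSP90AB1 together was 28.1% ± 0.606 in vehicle at 7 days, 31.3% ± 0.529 with VIC-1911, 32.9% ± 0.236 with olaparib and 34.0% ± 0.635 with the combination (SD, n = 3). It was 38.5% ± 1.12 in vehicle and 39.6% ± 0.116 with VIC-1911 at 2 days. The ratio of HSPE1 to HSPD1 was 0.0584 ± 0.00451 in vehicle at 7 days and reached 0.117 ± 0.0118 with the combination, which is 2.01 times as high. It was 0.0809 ± 0.00429 with VIC-1911 and 0.101 ± 0.0119 with olaparib. At 2 days it was 0.0826 ± 0.00364 in vehicle and 0.0904 ± 0.00771 with VIC-1911. This ratio of FPKM carries the uncertainty of HSPE1 and is not a ratio of proteins.

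The ratio of HSPA1A plus HSPA1B to HSPA8 was 0.00924 ± 0.000448 in vehicle at 7 days, 0.0138 ± 0.000390 with VIC-1911, 0.0164 ± 0.00124 with olaparib and 0.0175 ± 0.00153 with the combination. At 2 days its mean was lower with VIC-1911, 0.00987 ± 0.000721, than in vehicle, 0.0105 ± 0.000761. All 3 ratios were higher in each treated group than in vehicle at 7 days, with no overlap of libraries, and overlapped between groups at 2 days. By an exact two-sided permutation test of 3 against 3, p was 0.10 for each such 7-day difference, which is the smallest p this design allows. After adjustment over the 18 tests made, p was 0.138 by this exact test.

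**Figure D3:**
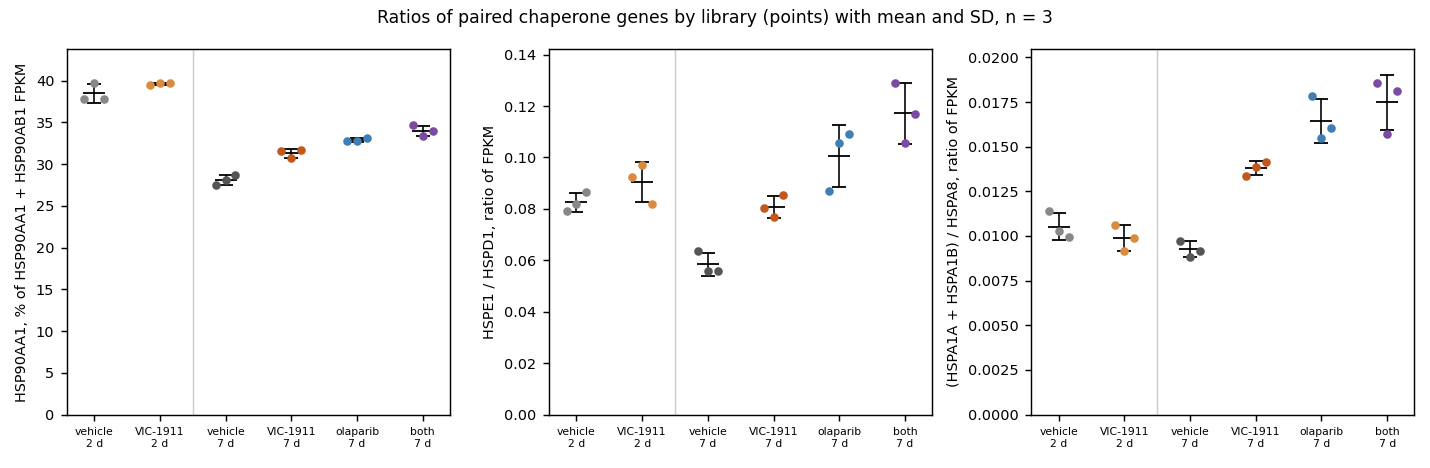
Ratios of 3 sets of related chaperone genes, computed from FPKM (y axes, from 0), in the 18 libraries (points) of the 6 groups (x axes), with the mean and SD of 3 libraries. Each ratio is lowest in the 7-day vehicle group among the 7-day groups, and the HSPE1 to HSPD1 ratio is 2.01 times as high with the combination.

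Among the 12 libraries of 7 days, HSPA1B, DNAJB1, HSP90AA1 and HSP90AB1 varied together, with Pearson correlations of log2 CPM (counts scaled to library size) between 0.937 and 0.977. HSPA8 correlated negatively with HSPA1B (-0.792) and HSP90AA1 (-0.787) and positively with HSPD1 (0.719). These are descriptions over 12 libraries that share 4 groups, so that any gene that responds to both drugs correlates with the others. Of the 9817 genes with at least 10 CPM on average, the 2 most like HSPH1 were HSPA4 (0.993), another HSP110 gene, and RPL7L1 (0.989). Those most like DNAJB1 were DNAJA1 (0.994), another J-domain gene, and HPRT1 (0.993). HSP90AA1 was most like NIFK and EIF3I, HSP90AB1 like TPM3 and BCAR1, HSPA1B like GIPC1 and ATP6V0D1, HSPA8 like RAD23B and IRX4, HSPB1 like PGP and TOMM5, HSPD1 like WDR76 and SSRP1, and HSPE1 like HADH and C17orf89, with correlations of 0.959 to 0.993.

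The wider heat shock network was read from 8 lists of 84 further genes, of which 73 could be tested at 2 days and 76 at 7 days. VIC-1911 raised 19 and lowered 4 at 2 days, and raised 49 and lowered 6 at 7 days. With olaparib 43 were higher and 9 lower, and with the combination 44 were higher and 9 lower. The shares higher, 26%, 64.5%, 56.6% and 57.9%, stand beside 7.5%, 26.7%, 28.1% and 28.6% of all genes tested. The shares lower, 5.48%, 7.89%, 11.8% and 11.8%, stand beside 7.19%, 25.7%, 25.9% and 28% of all genes tested. At 2 days, 11 network genes in place of 19 were higher without vehicle replicate 3, and 1 or 2 in place of 4 were lower without VIC-1911 replicate 1 or 2.

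Of the 14 genes of TRiC, the cytosolic chaperonin, and prefoldin, which hands it clients, 12 rose with VIC-1911 and 11 each with olaparib and with the combination. None of the 14 fell, where 25.7%, 25.9% and 28% of all genes were lower. Higher were 85.7%, 78.6% and 78.6% of the list and 26.7%, 28.1% and 28.6% of all genes. CCT6A, CCT3 and CCT7, subunits of TRiC, rose by 0.57, 0.47 and 0.37 with VIC-1911 (SE 0.04, 0.04 and 0.05) and by 0.49, 0.46 and 0.47 with the combination. At 2 days 5 of the 14 rose (35.7%, against 7.5% of all genes), CCT3 by 0.20 and CCT6A by 0.18 (SE 0.04 each).

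Of the 12 tested HSP90 co-chaperones, 10 rose with VIC-1911, 10 with olaparib and 9 with the combination, and 0, 1 and 1 fell. This list had 83.3%, 83.3% and 75% higher and 0%, 8.33% and 8.33% lower. Among all genes 26.7%, 28.1% and 28.6% were higher and 25.7%, 25.9% and 28% lower. FKBP5, an immunophilin that binds HSP90 in steroid receptor complexes, rose from 16.7 ± 0.383 FPKM in vehicle to 34.2 ± 0.105 with VIC-1911, 39.8 ± 1.76 with olaparib and 35.1 ± 3.17 with the combination. Its log2 fold changes were 0.99, 1.23 and 1.06 (SE 0.05 each). It had risen by 0.50 at 2 days (SE 0.05). FKBP4, the related immunophilin, rose by 0.65, 0.49 and 0.56 (SE 0.04 each). CHORDC1, an HSP90 partner, rose by 0.43 at 2 days (SE 0.06) and by 0.68, 0.81 and 0.77 at 7 days (SE 0.08 each).

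Of the 9 tested J-domain genes, 6 rose with VIC-1911, 6 with olaparib and 7 with the combination, and 1, 1 and 0 fell. These were 66.7%, 66.7% and 77.8% higher and 11.1%, 11.1% and 0% lower. Among all genes 26.7%, 28.1% and 28.6% were higher and 25.7%, 25.9% and 28% lower. DNAJA1, a close partner of HSPA8, rose by 0.34 at 2 days and by 0.71, 0.66 and 0.73 at 7 days (SE 0.05 each). DNAJC2, a ribosome-associated chaperone, rose by 0.59, 0.52 and 0.69 (SE 0.07, 0.07 and 0.06) and DNAJB4 by 0.84, 0.71 and 1.06 (SE 0.16, 0.16 and 0.15). DNAJC7 rose by 0.22 at 2 days (SE 0.06) and by 0.15, 0.13 and 0.19 at 7 days.

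The 10 HSP70 partners had 8, 6 and 6 higher at 7 days and none lower, and 5 higher at 2 days. The shares higher at 7 days were 80%, 60% and 60%, beside 26.7%, 28.1% and 28.6% of all genes. At 2 days 50% of the list and 7.5% of all genes were higher. Among all genes 25.7%, 25.9% and 28% were lower at 7 days. ST13, a cofactor of HSP70, rose by 0.26 at 2 days (SE 0.05) and by 0.24, 0.35 and 0.44 at 7 days (SE 0.04 each). BAG2 rose by 0.47 at 2 days (SE 0.11) and by 0.42, 0.51 and 0.53 at 7 days. BAG1 rose by 0.33, 0.37 and 0.42 at 7 days (SE 0.06 each).

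Other HSP70 and HSP110 genes were split. In each comparison with vehicle at 7 days 37.5% of the 8 tested were higher and 0% lower. Among all genes 26.7%, 28.1% and 28.6% were higher and 25.7%, 25.9% and 28% lower. HSPA4L, an HSP110 gene, rose from 3.59 ± 0.309 FPKM in vehicle to 8.93 ± 0.760 with VIC-1911 and 10.5 with olaparib and with the combination, log2 fold changes of 1.26, 1.51 and 1.51 (SE 0.09 each). HSPA4 rose by 0.58, 0.47 and 0.45 (SE 0.04 each). HSPA12B rose from a low level, by 1.60, 0.99 and 1.47 (SE 0.31, 0.33 and 0.30). The remaining 5 of the 8 tested did not pass in any comparison with vehicle at 7 days. HSPA6, a strictly heat-induced HSP70, was among them, at 1 to 17 counts per library at 7 days.

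Of the small heat shock genes 3 of 8 could be tested. HSPB8 stood at 0.303 ± 0.171 FPKM in vehicle at 7 days and 1.72 ± 0.362 with the combination, and rose by 1.15, 1.68 and 2.30 on the log2 scale (SE 0.34, 0.32 and 0.29). At 2 days it rose by 1.05 (SE 0.31). CRYAB, the small heat shock protein αB-crystallin, rose by 1.02, 1.32 and 1.88 (SE 0.26, 0.25 and 0.23). Both rest on few counts, 17, 16 and 2 for HSPB8 and 31, 15 and 13 for CRYAB in vehicle at 7 days. HSPB11 rose by 0.36 with VIC-1911 (SE 0.08), had a change of -0.02 with olaparib and fell by 0.33 with the combination (SE 0.08).

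Of the 15 tested mitochondrial chaperones and proteases, 6 rose and 4 fell with VIC-1911, 4 rose and 6 fell with olaparib, and 4 rose and 7 fell with the combination. The shares higher were 40%, 26.7% and 26.7%, where 26.7%, 28.1% and 28.6% of all genes were higher. The shares lower were 26.7%, 40% and 46.7%, where 25.7%, 25.9% and 28% of all genes were lower. HSPA9, the mitochondrial HSP70, fell from 122 ± 3.23 FPKM to 84.4 ± 2.95 with VIC-1911, 76.8 ± 1.43 with olaparib and 71.6 ± 1.46 with the combination, changes of -0.58, -0.69 and -0.77 (SE 0.04 each). LONP1, a matrix protease, fell by 0.72, 0.85 and 0.88 on the log2 scale (SE 0.05 each). The nucleotide exchange factors of HSPA9 went in opposite directions: GRPEL2 fell by 1.02, 0.92 and 1.03 (SE 0.06 each), while GRPEL1 rose by 0.78, 0.71 and 0.69 (SE 0.07 each).

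**Figure D4:**
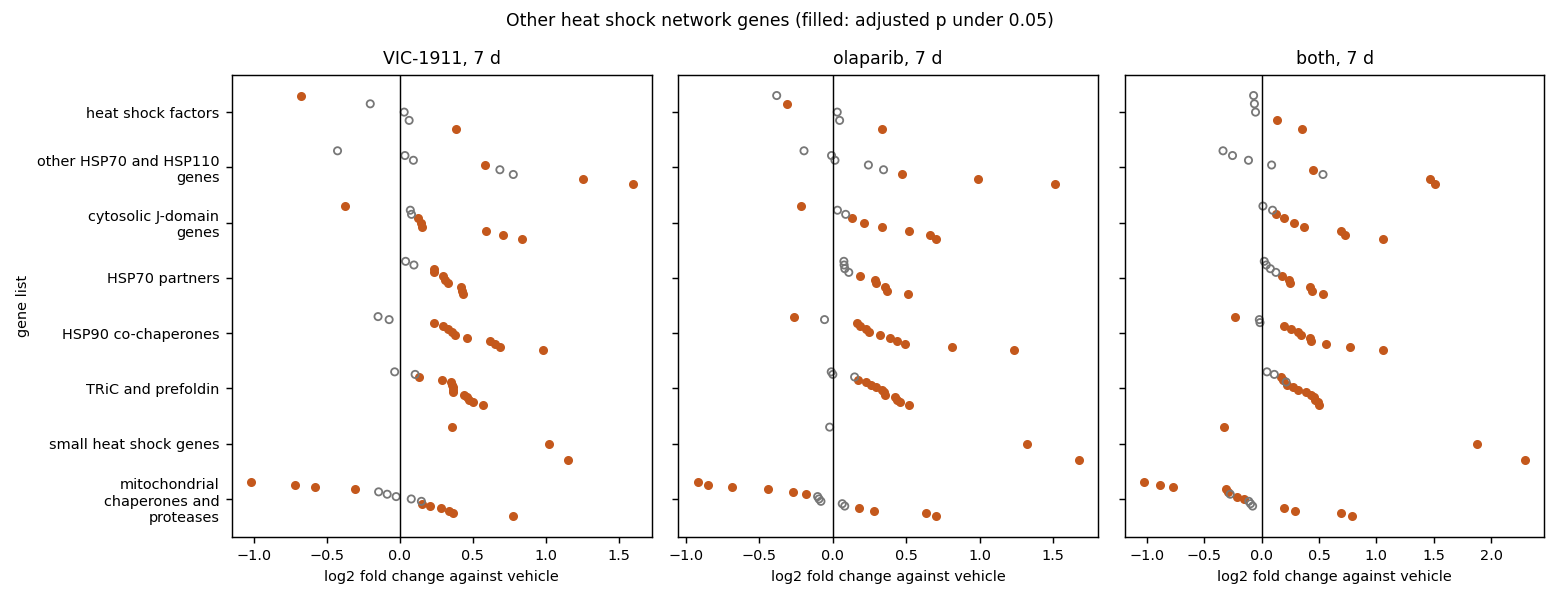
Log2 fold change against vehicle at 7 days (x axes) of the tested genes of 8 heat shock network lists (y axis) with VIC-1911, olaparib and both. Each point is 1 gene, and filled points have an adjusted p under 0.05; none of the 14 TRiC and prefoldin genes is a filled point below 0, while mitochondrial genes lie on both sides.

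Of the heat shock factors, HSF1, the main regulator of the stress-induced genes, was at 45.9 ± 0.763 FPKM in vehicle at 7 days, 49.5 ± 0.149 with VIC-1911, 47.5 ± 3.24 with olaparib and 50.5 ± 1.38 with the combination. Its log2 fold changes were 0.07, 0.05 and 0.14 (SE 0.05 each), and the last passed (adjusted p = 0.0168). HSF4 fell by 0.67 with VIC-1911 (SE 0.07) and by 0.31 with olaparib (SE 0.06) and had a change of -0.06 with the combination. HSBP1, a negative regulator of HSF1, rose by 0.39, 0.33 and 0.35 (SE 0.06 each). At 2 days only HSF4 passed in this list, with a fall of 0.38 (SE 0.11).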

How the data were processed

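RNA-seq libraries of polyA RNA from C4-2B cells were grouped by their sample labels, 3 per group. The authors used Trimmomatic for trimming and STAR for alignment to GRCh38 (STAR 2.6.0 in the submitters' processing notes, another version in the study's methods) and deposited raw counts per gene and FPKM, computed with an in-house script. The strand setting and the treatment of reads that fit several genes are not given in the sources used here. This bears on genes with near-identical copies (HSPA1A and HSPA1B) or pseudogenes. The deposited FPKM of 7 days follow from the counts, and those of 2 days rest on other reads. Per count file, 28 names had turned into dates, holding 0.182% and 0.193% of counts.

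Tests used edgeR 4.0.16 in R 4.3.3 (quasi-likelihood, TMM scaling) on the counts, with 1 fit for 2 days, 1 for the 12 libraries of 7 days and 1 for vehicle and VIC-1911 of both times, keeping genes that reached 10 counts in 3 or more libraries. Benjamini-Hochberg adjustment covered all genes of a fit's comparison (threshold 0.05). The procedure was tested on simulated data. Alternatives were upper-quartile or no scaling, no filter, a mean FPKM of at least 1, DESeq2 1.42.0, limma 3.58.1 on log2(FPKM + 0.1) and log2(FPKM + 1), HSPA1A and HSPA1B summed, only the 2 groups compared, a replicate block, and each library left out. Count depth sets the precision. Replicate pairs differed by more than counting noise (chi-square per degree of freedom 1.25 to 5.22).

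The members and lists were chosen with earlier results of these data known. Named genes were all members, in each list the 3 with the smallest adjusted p for the combination and the 2 for VIC-1911 at 2 days, and the 2 most correlated with each member. HSPA6 was named outside this rule, after its values were seen. Genes in regions shared between annotations are uncertain. Of the luminal prostate markers chosen, 2 are not reported here and were left out of their count and sum.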

Additional observations from a re-analysis of the deposited data

Results flagged for a closer look

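The effect of VIC-1911 at 7 days differed by the presence of olaparib in 8 members, by the interaction term of the edgeR fit. Of all genes tested, 22.9% had a lower and 21% a higher effect beside olaparib. The 8 are the members that VIC-1911 alone raised at 7 days, and the term uses the same libraries. The differences in log2 fold change, effect with olaparib less effect without it, were -0.83 for HSPH1, -0.73 for HSPB1, -0.50 for HSPE1, -0.46 for HSPA1B, -0.42 for DNAJB1, -0.35 for HSP90AA1, -0.21 for HSPD1 and -0.20 for HSP90AB1, with adjusted p from 3.44e-12 (HSPH1) to 0.00355 (HSPD1). All 8 remained below 0 with adjusted p under 0.05 in each fit that left out 1 library.

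The effect of VIC-1911 differed between 2 and 7 days in 7 members, where 14.6% of all genes tested had a higher and 14.2% a lower effect at 7 days. The differences, effect at 7 days less that at 2 days, were 0.55 for HSPB1, 0.45 for HSPH1, 0.36 for HSPE1, 0.36 for HSPA1B, 0.34 for DNAJB1, 0.29 for HSP90AA1 and -0.27 for HSPA8, with adjusted p from 1.99e-07 (HSPH1) to 0.0160 (HSPE1). The counts of the 2 times come from separate tables, and each effect was taken within its own table. Length of treatment and name run cannot be told apart in these differences.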

How the results depend on the processing

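No member's fold change that passed the test, and no ratio, changed direction under any alternative run. Counts moved by more than 1.5 times in these cases. Members higher with olaparib added to VIC-1911 numbered 1 with limma on either FPKM scale, in place of 3. Network genes lower with VIC-1911 at 2 days numbered 2 with no filter and 2 with DESeq2, in place of 4. With single libraries left out, members higher with VIC-1911 at 2 days ranged from 3 (without vehicle replicate 3 or VIC-1911 replicate 1) to 6, network genes higher there from 11 (without vehicle replicate 3) to 20, and network genes lower there from 1 (without VIC-1911 replicate 1) to 3. Counts of network genes under the alternatives were added after seeing the data. Of the members' fold changes under alternatives, 1128 kept their direction and side of the threshold, 25 lost the call, 7 gained it and 46 changed sign. The causes were not tested, and a fit without a library has fewer samples.

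The sign changes were in values near 0, of which none passed the test (smallest adjusted p 0.539, or 0.495 under an alternative). With VIC-1911 added to olaparib, HSPH1 had log2 fold changes of 0.014 with upper-quartile scaling, 0.0058 by library size, 0.0017 with the block, 0.0064 among genes of at least 1 FPKM and 0.0062 with DESeq2. HSPA8 had -0.011 with no filter, -0.013 with both limma fits and -0.00028 with only the 2 groups, and HSPB1 had -0.010 with no filter, -0.0081 with the block and -0.017 with both limma fits. With olaparib added to VIC-1911, HSP90AB1 had -0.0051 with no filter and -0.032 with both limma fits, and DNAJB1 had -0.011 with both. With limma HSPA8 had 0.017 for VIC-1911 at 7 days and -0.029 for the interaction. HSPD1 had differences between 7 and 2 days of 0.0050 with upper-quartile scaling, 0.052 by library size, 0.013 with no filter and 0.012 with DESeq2. With single libraries left out, the ranges for VIC-1911 added to olaparib were -0.020 to 0.018 for HSPA8, -0.028 to 0.017 for HSPH1, -0.0059 to 0.053 for DNAJB1, -0.095 to 0.071 for HSPB1 and -0.018 to 0.14 for HSPE1. They were -0.0071 to 0.025 for HSP90AB1 with olaparib added to VIC-1911, and -0.034 to 0.032 for the time difference of HSPD1.

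The replicate numbers did not clearly pair the samples: correlations of the deviations ranged from -0.105 to 0.256, and no comparison had all 3 above 0.1. With 3 libraries per group these values cannot exclude a pairing. In combination against vehicle 5 of 6 libraries correlated best with their own number, and in the others 1 or 2 of 6. With the number as a replicate block, 6 members in place of 5 were higher with VIC-1911 at 2 days, HSP90AB1 joining with an adjusted p of 0.0415, and no other call of a member changed. HSPA1A had at most 8 counts per library and no change in it was tested.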
